A study of Homo sapiens with 4 samples.

Results

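The edited NK-92 line was compared with the wild-type (WT) line in the pair of libraries whose labels give IL-2 48 h before RNA extraction. NK-92 is an established human natural killer (NK) cell line that is grown with interleukin 2 (IL-2). In the edited line, named ΔOGT-ISS, CRISPR-Cas9 was used to delete an intronic splicing silencer (ISS) of OGT, with the aim of lasting OGT expression and more O-GlcNAc. The comparison uses 2 of the 4 libraries of the series, 1 from each line, and asks which genes differ between the lines at this time. Of the 61860 genes in the count table, 17780 had at least 10 counts in 1 of the 2 libraries and are called measured here. The other 2 libraries are the same lines with IL-2 given 24 h before extraction, and their values are set beside the 48 h values. All groups are NK-92 cells in medium with serum and IL-2. The library titles name IL-2 only for the 24 h pair, and the times used here follow the treatment labels. Whether the edited line is a clone or a pool is not given in the sources used here, and a difference from WT cannot be assigned to the edit itself. With 1 library on each side there is no replicate check, and no p-value is given.

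O-GlcNAc is a sugar that the enzyme OGT attaches to serine and threonine residues of proteins inside the cell, and that OGA removes. The silencer lies in an OGT intron that can be retained, which keeps the transcript from making full-length enzyme. Type I interferons bind the receptor IFNAR1/IFNAR2, and the kinases JAK1 and TYK2 then activate STAT proteins. These join IRF9 into a factor that binds the interferon-stimulated response element of antiviral genes. NK cells both respond to interferons and make interferon gamma, and they kill target cells with granules of perforin and granzymes.

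The edited library held 11305599 counts and the WT library 10889986. Levels are in CPM (counts scaled to a common library size) after TMM normalization, a scaling that sets the bulk of genes equal between the 2 libraries. A ratio is the edited value divided by the WT value, and its 95% interval covers counting error only. A gene is counted as higher when its ratio is at least 2, or as lower when it is at most 0.5, with an interval that excludes 1. Where a library has 0 counts, up to 3 counts are allowed for, equal to 0.259 CPM in the edited and 0.283 CPM in the WT library. Fold bounds ("at least") are computed against these 3 counts per library and take the count in the other library as exact, so the end of the counting interval, which can lie nearer 1, is given with each.

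Of the 17780 measured genes, 2910 were higher in the edited line (16.4%) and 1406 were lower (7.91%). The excess of higher genes lay among genes of low level. Of 5036 genes whose larger value was under 2 CPM, 34.9% were higher and 12.3% lower, while of 2744 genes at 100 CPM or more, 1.93% were higher and 1.82% lower. Among the 10045 genes with at least 5 CPM in 1 library, a limit chosen after seeing the data, 420 were higher (4.18%) and 375 lower (3.73%). The edited library also held more counts where little RNA was counted at 24 h. Summed over 6120 protein-coding genes under 0.2 CPM in both 24 h libraries, it had 17822 counts against 7977 in WT, a ratio of 2.04 (1.99 to 2.10), and over 389 olfactory receptor genes the ratio was 2.13 (1.85 to 2.46). At 24 h the same sets had ratios of 0.731 and 0.853. Both 48 h libraries held more such counts than the 24 h ones. The olfactory receptor genes summed to 56.9 CPM in the edited and 26.7 CPM in the WT library, against 13.0 and 15.3 CPM at 24 h. Mitochondrial rRNA made up 0.358% and 0.187% of counts, against 0.0162% and 0.0174% at 24 h. The part of these diffuse counts in the calls on low genes was not tested, so genes under 5 CPM are named below only where a gene list holds them.

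**Figure D1:**
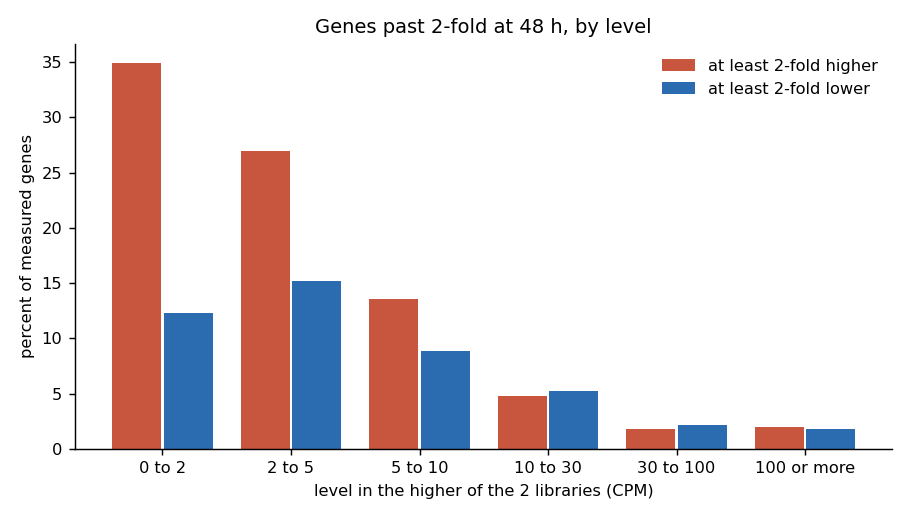
Share of genes counted as higher (ratio of at least 2) or lower (at most 0.5) in ΔOGT-ISS at 48 h, in percent, by the larger of the gene's 2 CPM values. In the lowest class 34.9% of genes were higher, and in the class of 100 CPM or more 1.93% were.

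The labelled cell type was checked against its markers. All 12 NK cell markers were measured, with a summed level of 3009 CPM in the edited and 3302 CPM in the WT library. NCAM1, which encodes CD56, stood at 259 and 262 CPM. Of the 12 markers 11 had a log2 ratio below 0, with a median of -0.14, and TYROBP alone was lower. All 12 lie at 5 CPM or more, where 3.73% of all genes were lower. T cell markers were partly present, with CD3E at 184 and 221 CPM and CD3D at 6 counts in each library. Of 9 T cell markers 5 were measured, and 2 of these were higher, both under 5 CPM. Over all measured genes 16.4% were higher. Of the B cell markers only PAX5 was measured, at 60.6 and 79.5 CPM, while CD79A had 0 counts in both. Of 9 myeloid markers 3 were measured, of which S100A9 stood at 574 and 776 CPM. The erythroid, the fibroblast and epithelial, and the endothelial marker lists summed to at most 7.07 CPM in either library. In bulk RNA, fewer cells of a type and less RNA per cell cannot be told apart.

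OGT, the edited gene, was not counted more often in the edited line. OGT (ENSG00000147162, GRCh38 chromosome X, 71533083 to 71575897) had 4549 counts in the edited and 4718 in the WT library, or 392 and 445 CPM, a ratio of 0.882 (0.846 to 0.918). OGA (chromosome 10, 101784443 to 101818465) had 1451 and 1600 counts, a ratio of 0.829 (0.772 to 0.891). The deletion itself is not checked by these values, since reads are summed over all OGT transcripts whether or not an intron is retained. Of 14 genes of the hexosamine pathway and O-GlcNAc cycling, 12 were measured and 0 passed the 2-fold rule in either direction, with a median log2 ratio of -0.23. Over all measured genes the median was 0.04. All 12 lie at 5 CPM or more, where 4.18% of all genes were higher and 3.73% lower. The largest departures were in GNPDA1, a glucosamine-6-phosphate deaminase, at 0.563 (0.496 to 0.638), and in NAGK, the N-acetylglucosamine kinase, at 1.47 (1.22 to 1.78). GFPT1, which catalyses the first step towards UDP-GlcNAc, stood at 1.04 (0.957 to 1.13).

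Interferon-stimulated genes had the largest median ratio at 48 h among the lists with at least 5 measured members. Of 68 listed genes 66 were measured, of which 42 were higher and 0 lower, with a median log2 ratio of 1.66 and a range from -0.32 to 8.89. Of the 62 members at 5 CPM or more, 39 were higher. Over all measured genes 16.4% were higher, and over all genes at 5 CPM or more 4.18% were. Summed over the list, the edited library held 9776 CPM and the WT library 4054 CPM. Of the 15 protein-coding genes with the interval bounds farthest above 1, 8 belong to this list, and of the first 100, 32 do.

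**Figure D2:**
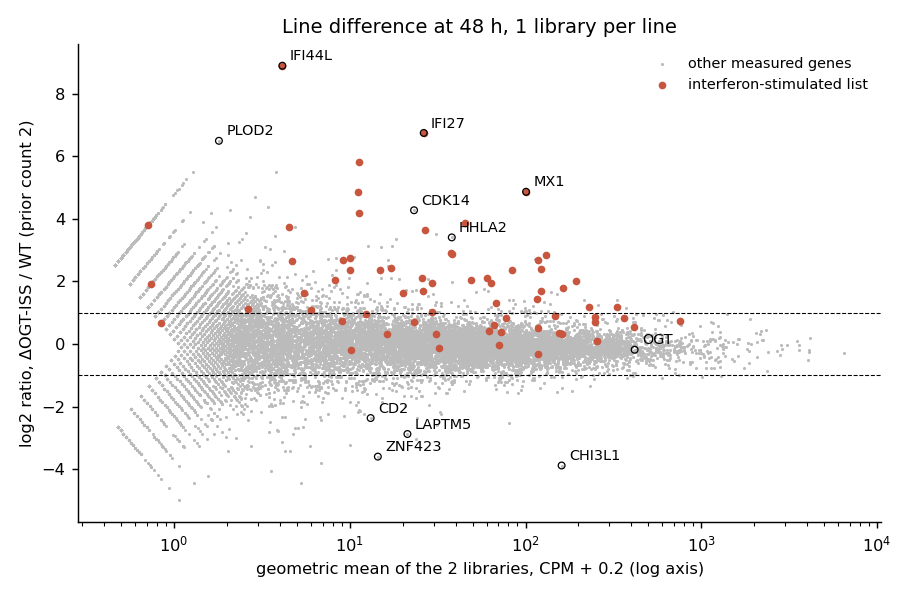
Log2 ratio of ΔOGT-ISS over WT at 48 h for each measured gene (vertical axis) against its mean level in CPM (horizontal log axis), with the interferon-stimulated list marked. The 66 marked genes have a median of 1.66, and the spread of the other genes widens towards low levels.

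The 4 interferon-stimulated genes that stood highest by that bound are IFI44L, IFI27, IFI44 and MX1, and their promoters are printed here for that rank. Letters of the response element stand before the start site in 3 of them and just after it in the fourth. The sequences are RefSeq promoters on GRCh38.p14, from 250 bases before to 50 bases after each gene's start, all from the plus strand. They lie at chr1:78620198-78620497 for IFI44L, chr14:94110486-94110785 for IFI27, chr1:78649539-78649838 for IFI44 and chr21:41420308-41420607 for MX1. Capitals mark each match to the core of the element, GAAA repeated after a gap of any 2 bases, on either strand.
IFI44L: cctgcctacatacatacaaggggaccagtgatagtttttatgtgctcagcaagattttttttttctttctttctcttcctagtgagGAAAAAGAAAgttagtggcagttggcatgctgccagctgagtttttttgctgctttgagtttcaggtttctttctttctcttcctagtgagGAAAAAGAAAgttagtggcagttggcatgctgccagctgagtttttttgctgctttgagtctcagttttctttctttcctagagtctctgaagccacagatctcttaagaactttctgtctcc
IFI27: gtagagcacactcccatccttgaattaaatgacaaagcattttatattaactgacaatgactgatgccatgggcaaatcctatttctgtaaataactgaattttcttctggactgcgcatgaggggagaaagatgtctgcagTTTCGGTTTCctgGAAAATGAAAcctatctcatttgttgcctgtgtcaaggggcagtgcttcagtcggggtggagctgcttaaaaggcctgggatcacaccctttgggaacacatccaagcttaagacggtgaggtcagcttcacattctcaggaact
IFI44: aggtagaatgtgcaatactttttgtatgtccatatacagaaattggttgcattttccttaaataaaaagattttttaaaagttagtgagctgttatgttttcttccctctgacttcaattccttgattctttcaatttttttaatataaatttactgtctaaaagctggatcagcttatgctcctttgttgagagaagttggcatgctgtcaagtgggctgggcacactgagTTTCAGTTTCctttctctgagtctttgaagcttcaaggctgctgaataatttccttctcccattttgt
MX1: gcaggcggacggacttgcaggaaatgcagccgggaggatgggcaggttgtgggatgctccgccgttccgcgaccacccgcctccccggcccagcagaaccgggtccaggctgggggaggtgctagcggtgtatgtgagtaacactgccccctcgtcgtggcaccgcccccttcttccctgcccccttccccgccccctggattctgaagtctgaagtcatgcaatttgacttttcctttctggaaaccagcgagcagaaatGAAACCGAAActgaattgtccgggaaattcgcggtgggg
IFI44L holds the same letters at 164 and at 73 bases upstream of the start site. In IFI27 the matches begin 108 and 95 bases upstream, the first on the opposite strand, and in IFI44 the match, also on the opposite strand, begins 18 bases upstream. The MX1 match begins 11 bases after the start site. OAS1, XAF1 and RSAD2, next by the same bound, held 0 matches in this window.

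The core was more frequent in the interferon list than in other promoters. A match was present in 3.65% of all 27305 promoters in the table and in 3.31% of the 7609 promoters found for protein-coding genes at 5 CPM or more. Of the 42 list members that were higher, 30 had a promoter in the table, and 19 of these (63.3%) held a match. Among the measured members that did not pass the 2-fold rule the share was 8 of 17 (47.1%). Outside the list, 14 of 242 promoters of higher genes (5.79%) and 12 of 243 of lower genes (4.94%) held it. The letters TTCNNNGAA, the core of a STAT homodimer site, were found in 7.88% of all promoters and in 6 of the 30 (20%). Among the members that did not pass the 2-fold rule the share was larger, at 6 of 17 (35.3%). A match is a description of the letters in this window, and the list was drawn from known interferon targets.

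IFI44L, a negative regulator of interferon responses, had 990 counts in the edited library and 0 in WT, which is at least 302-fold higher against that limit, with an interval from 245. IFI27, a small mitochondrial membrane protein, had 3153 and 25 counts, a ratio of 115 (78.0 to 178). IFI44, the neighbour of IFI44L on chromosome 1, had 976 and 14 counts, a ratio of 63.7 (37.8 to 117). These 3 genes were also higher in the 24 h pair, with ratios of 25.5 (9.71 to 95.2), 5.48 and 7.64. Among the 42 higher members they were the only 3 that were, while 4 were lower, 33 did not pass and 2 had under 10 counts. The median log2 ratio of the 42 was 2.36 at 48 h, which their choice fixes in sign, and -0.18 at 24 h, when 3.65% of all 19483 measured genes were higher and 6.65% lower. Of the remaining IFI genes, IFI6 was 7.39-fold higher (6.22 to 8.83) and IFI35 3.15-fold higher, while IFI16, a DNA sensor, stood at 1.68 and did not pass.

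Restriction factors that act on viral RNA and proteins came next. MX1, a dynamin-like GTPase that traps viral nucleoproteins, had 6303 counts (543 CPM) in the edited library against 196 (18.5 CPM) in WT, a ratio of 29.4 (25.5 to 34.1). RSAD2, or viperin, which makes a chain-terminating nucleotide, had 1998 and 123 counts, a ratio of 14.9 (12.4 to 18). Its divergent neighbour CMPK2, a mitochondrial nucleotide kinase, was 4.11-fold higher. All 6 measured IFIT and IFITM genes were higher. Of the IFIT cluster on chromosome 10, whose proteins bind foreign RNA ends, IFIT1 had 1098 and 78 counts, a ratio of 12.9 (10.2 to 16.4). IFIT3 had 4056 and 511 counts, a ratio of 7.26 (6.62 to 7.97), IFIT2 stood at 3.86 and IFIT5 at 3.89. IFITM1, which blocks virus entry at membranes, had 266 and 36 counts, a ratio of 6.76 (4.76 to 9.85). Further antiviral genes that were higher include XAF1 at 19.3 (13.0 to 29.8), TRIM22 at 15.5 (8.49 to 31.7), the nuclear receptor co-activator HELZ2 at 5.13, SAMD9L at 4.05 and the kinase EIF2AK2 (PKR) at 3.48. SLFN5 did not share this direction, at 0.798 (0.739 to 0.863).

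The OAS enzymes make 2-5A, a messenger made on sensing double-stranded RNA. OAS1 had 692 counts against 20, a ratio of 31.6 (20.3 to 52.1), OAS2 had 3277 against 566, a ratio of 5.29 (4.84 to 5.80), and OAS3 had 458 against 76, a ratio of 5.51 (4.31 to 7.12). OASL stood at 7.52. Of the 6 genes of ISG15 conjugation 5 were higher. ISG15, the ubiquitin-like modifier itself, had 3466 and 487 counts, a ratio of 6.51 (5.92 to 7.17), and USP18, the protease that removes it and restrains the receptor, was 5.24-fold higher. The ligase HERC6 stood at 6.99, HERC5 at 2.04 and the activating enzyme UBA7 at 3.21. Of 7 measured nucleic acid sensors 5 were higher. The RNA sensor genes IFIH1 (MDA5) and DHX58 (LGP2) stood at 4.30 (3.80 to 4.88) and 5.36 (3.90 to 7.53), ZBP1 at 4.24, DDX60 at 3.21 and RIGI at 2.16. The DNA sensing genes CGAS and STING1 stood at 0.981 (0.887 to 1.09) and 0.917 (0.789 to 1.07), and both intervals include 1.

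**Figure D3:**
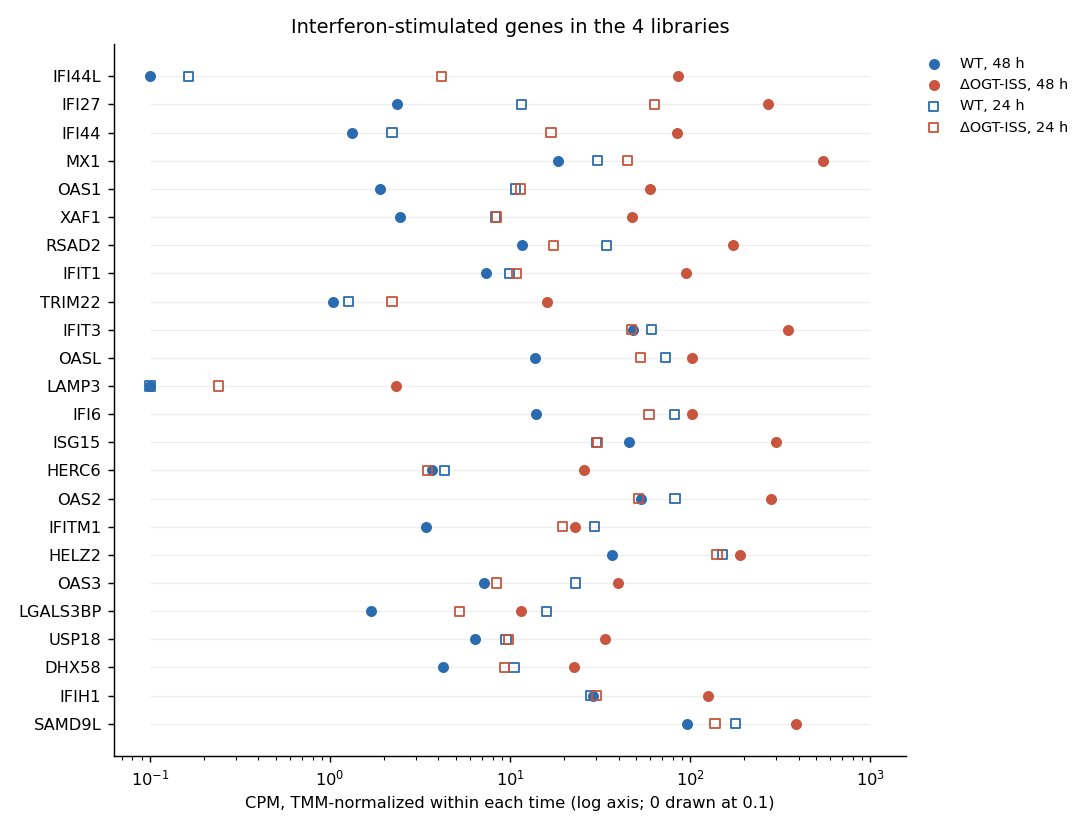
Level in CPM (log axis, scaled within each time, 0 drawn at 0.1) of 24 interferon-stimulated genes in each of the 4 libraries; filled circles are 48 h, open squares 24 h. The genes drawn have the interval bounds farthest above 1 among the 42 list members counted as higher at 48 h. The edited library lies to the right of WT at 48 h for each, which that choice fixes. At 24 h the ratio of RSAD2 is 0.504 and that of MX1 1.46.

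Among the genes that carry the interferon signal, IRF9 and IRF7, themselves known interferon targets, were higher. IRF9 had 220 against 29, a ratio of 6.94 (4.70 to 10.6), and IRF7, which drives interferon alpha genes, had 433 against 43, a ratio of 9.21 (6.72 to 12.9). STAT2 stood at 1.97 (1.73 to 2.25) and IRF1 at 1.55 (1.40 to 1.71), short of the 2-fold rule. At 24 h, IRF7 and IRF9 had ratios of 0.988 and 0.819. Of the 33 genes of the signalling list 24 were measured, with 7 higher (29.2%), 3 lower (12.5%) and a median log2 ratio of 0.10. The shares over all measured genes were 16.4% and 7.91%. At 5 CPM or more, 4 of 18 were higher and 1 lower, where 4.18% and 3.73% of all genes were. JAK2 was also higher, at 3.05 (2.35 to 4), in a stretch of chromosome 9 where neighbouring genes had a median log2 ratio of 0.74.

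Genes of type I and type III interferon ligands were at or near 0. IFNB1 had 12 counts in the edited library and 0 in WT, at least 3.66-fold higher (interval from 2.54), at a level of 1.03 CPM. IFNA1, IFNA2, IFNE, IFNK, IFNL2 and IFNL3 had 0 counts in both libraries. IFNG, which NK cells secrete, had 717 and 787 counts, a ratio of 0.833 (0.752 to 0.923). Of the receptors, IFNAR1 stood at 0.810 (0.743 to 0.883), IFNAR2 was lower with 58 and 122 counts, a ratio of 0.435 (0.312 to 0.599), and IFNLR1 had 17 counts against 0. SOCS1, a feedback inhibitor of JAK kinases, had 7 counts against 39, a ratio of 0.164 (0.0619 to 0.371). IFNB1, IFNLR1 and SOCS1 lie in the range under 5 CPM in which the edited library held the diffuse counts described above, and SOCS1 goes against their direction.

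Genes of antigen presentation by MHC class I were mostly above WT by less than 2-fold. Of 20 measured genes 16 had a log2 ratio above 0, with a median of 0.36 against -0.11 at 24 h, and 2 were higher (10%). Over all measured genes 16.4% were higher, and 4.18% of those at 5 CPM or more, where all 20 lie. NLRC5, the transactivator of class I genes, had 1077 counts against 308, a ratio of 3.20 (2.81 to 3.64), and the peptide transporter TAP1 had 1681 against 746, a ratio of 2.06 (1.89 to 2.25). HLA-B, HLA-C and HLA-E stood at 1.5, 1.71 and 1.58, and these near-identical genes can share reads. B2M, their common light chain, stood at 0.970 (0.955 to 0.985), where neighbouring genes had a median log2 ratio of -0.31. Of the guanylate-binding proteins, which attack pathogen vacuoles, GBP1 was 2.68-fold higher (2.52 to 2.85), GBP3, GBP4 and GBP5 stood at 1.83, 1.75 and 1.70, and GBP2 stood at 0.811. Of 7 measured class II genes 0 were higher and HLA-DMA was lower, with 18 and 36 counts. Over all measured genes 7.91% were lower.

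Among lists with at least 10 measured members, the ATF4 programme had the next largest share of higher genes. ATF4 is translated under amino acid shortage and other stress, and turns on amino acid transporters and biosynthetic enzymes. Of 24 genes 20 were measured, of which 9 were higher (45%) and 0 lower, where 16.4% and 7.91% of all measured genes were. A log2 ratio above 0 was found in 18, and the median was 0.62 against 0.18 at 24 h. At 5 CPM or more, 7 of 18 were higher with a median of 0.51, where 4.18% of all genes were higher. ATF4 itself had 6451 counts against 2634, a ratio of 2.24 (2.14 to 2.34). Its partner genes DDIT3 (CHOP) and ATF3 stood at 3.25 (2.67 to 3.98) and 2.97 (2.27 to 3.91). SESN2, which reports leucine to mTORC1, had 1229 against 334 counts, a ratio of 3.36 (2.98 to 3.81), where the 24 h ratio was 0.782. The cystine transporter SLC7A11 stood at 2.66 (2.40 to 2.94), the serine synthesis enzyme PSAT1 at 2.42 (2.18 to 2.70) and the pseudokinase TRIB3 at 2.32 (2.04 to 2.65). PHGDH, the first enzyme of serine synthesis, had 28 counts against 4, a ratio of 6.4 (2.24 to 25.1). VLDLR had 57 against 1, a ratio of 52.1 (8.99 to 2.09e+03), and lies in the raised stretch of chromosome 9. PSPH, the last enzyme of serine synthesis, stood at 0.651. Of 15 genes of the unfolded protein response in the endoplasmic reticulum, HERPUD1 alone was higher, at 2.07 (1.89 to 2.26).

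**Figure D4:**
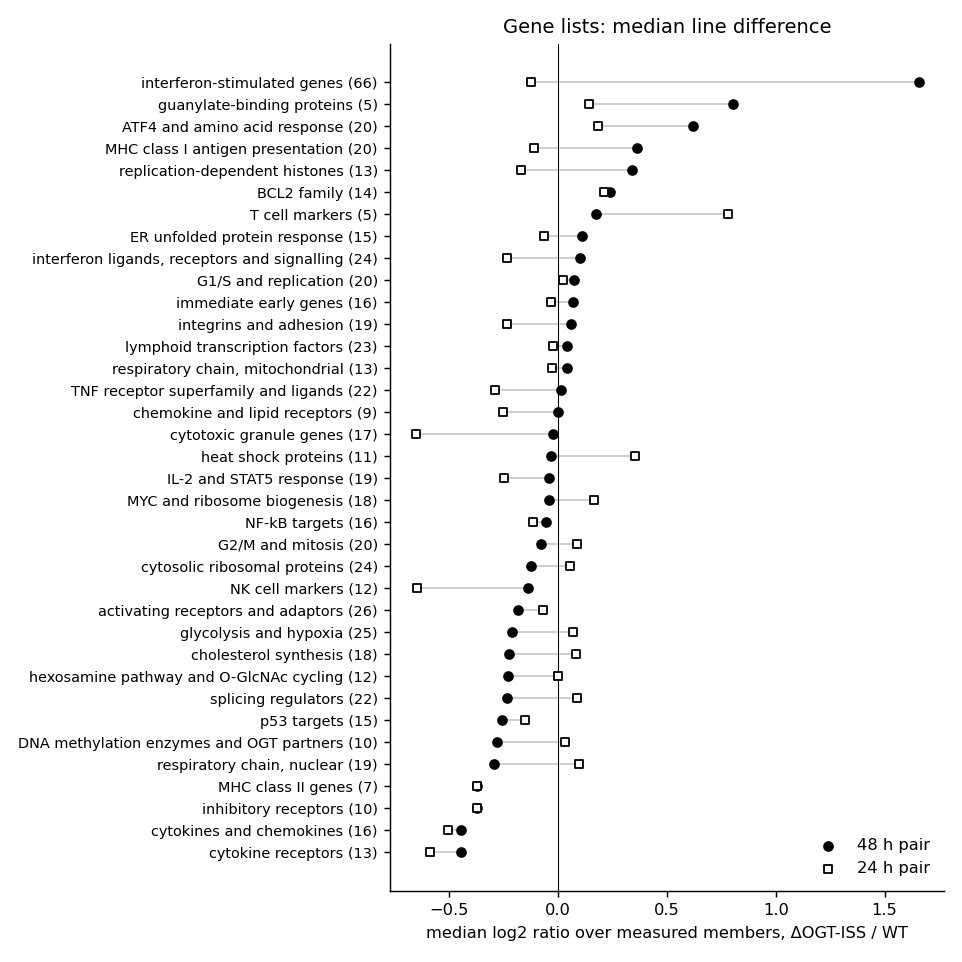
Median log2 ratio of ΔOGT-ISS over WT at 48 h (filled) and at 24 h (open), each over the members measured at that time. Only gene lists with at least 5 members measured at 48 h are drawn. At 48 h the interferon-stimulated list stands at 1.66 and the ATF4 list at 0.62, against 0.04 for all measured genes.

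Cytotoxic granule genes were near WT levels at 48 h. Of 18 genes 17 were measured and 0 passed the 2-fold rule in either direction. Of all genes at 5 CPM or more, where the 17 lie, 4.18% were higher and 3.73% lower. The median log2 ratio of the list was -0.02 (0.05 with scaling by total counts), against -0.66 at 24 h with 5 lower. Granzyme B (GZMB) had 9697 counts in the edited and 9007 in the WT library, a ratio of 0.984 (0.956 to 1.01), while at 24 h it had 9471 and 27669, a ratio of 0.289. Perforin (PRF1) stood at 1.21 against 0.677 at 24 h, and granzyme H (GZMH) at 1.45 (1.24 to 1.70) against 0.290. Granulysin (GNLY) stood at 0.746 (0.697 to 0.799) against 0.165 at 24 h. No test of these differences between times was possible, as each time has 1 library of each line. Granzyme A (GZMA) lay just inside the rule, with 6110 and 11111 counts and a ratio of 0.503 (0.487 to 0.519), and with DESeq2 size factors it was lower, at 0.5. Of the death ligands, TNFSF10 (TRAIL), which is also an interferon target, was higher at 2.45 (2.04 to 2.94).

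Some receptors and adaptors that start killing were lower, 2 of 12 measured receptors and 2 of 6 adaptors. Of the 12 receptors 7 had a log2 ratio above 0, with a median of 0.21, or -0.04 over the 8 at 5 CPM or more. The median of the adaptors was -0.40, and 0 of 8 proximal kinases passed the rule. Of 26 measured activating receptors, adaptors and kinases, 4 were lower (15.4%) and 1 higher (3.85%), with a median log2 ratio of -0.18. The shares over all measured genes were 7.91% and 16.4%. At 5 CPM or more, 3 of 21 were lower and 1 higher, where 3.73% and 4.18% of all genes were. CD2, the adhesion receptor for CD58, had 65 counts against 314, a ratio of 0.189 (0.143 to 0.248). The adaptor TYROBP (DAP12) had 15 against 68, a ratio of 0.202 (0.107 to 0.356), and HCST (DAP10), its neighbour on chromosome 19, had 257 against 640, a ratio of 0.367 (0.316 to 0.425). The annotated ends of TYROBP and HCST lie side by side on opposite strands, so reads there may be assigned to either gene. NCR2 had 13 and 27 counts. CD160, a receptor for HVEM and class I molecules, was the higher one, with 97 counts against 14, a ratio of 6.33 (3.60 to 12). These directions were also found at 24 h, with ratios of 0.255 for CD2, 0.121 for TYROBP, 0.313 for HCST and 2.48 for CD160.

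Of 10 measured inhibitory receptors, all at 5 CPM or more, 4 were lower and 0 higher. Of all genes at that level, 3.73% were lower and 4.18% higher. TIGIT had 356 counts against 785, a ratio of 0.415 (0.365 to 0.471), and KLRG1 had 46 against 113, a ratio of 0.372 (0.258 to 0.529), while at 24 h they stood at 0.784 and 1.01. HAVCR2 (TIM-3) stood at 0.487 (0.445 to 0.534), in a stretch of chromosome 5 whose local median log2 ratio was -0.42, and did not pass with scaling by total counts (0.514). CTLA4 stood at 0.435 (0.334 to 0.564). CD94 (KLRD1), NKG2A (KLRC1) and CD96 stood at 0.970, 0.917 and 0.938.

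**Figure D5:**
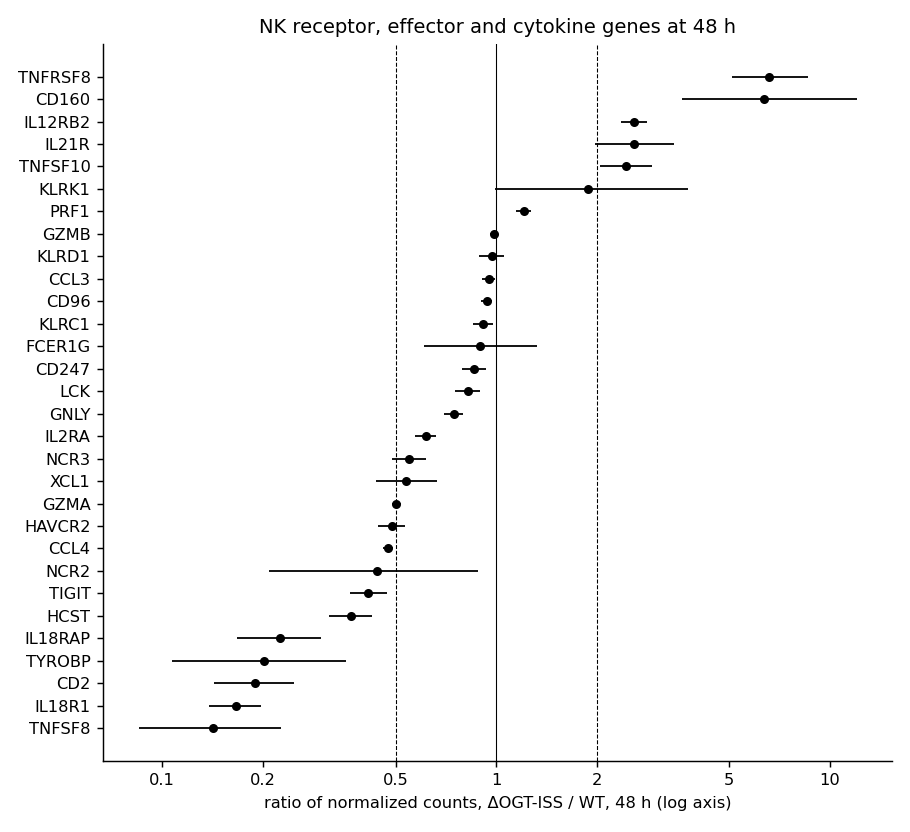
Ratio of ΔOGT-ISS over WT at 48 h (log axis) for NK effector, receptor and cytokine genes, with 95% counting intervals as bars and dashed lines at 0.5 and 2. TNFSF8, IL18R1, CD2 and TYROBP lie farthest left, GZMB sits at 0.984, and CD160 and TNFRSF8 lie farthest right.

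Of 13 measured cytokine receptors, all at 5 CPM or more, 2 were higher (15.4%) and 3 lower (23.1%). Of all genes at that level 4.18% were higher and 3.73% lower, and of all measured genes 16.4% and 7.91%. The median log2 ratio of the 13 receptors was -0.45. The IL-18 receptor genes, neighbours on chromosome 2, were lower: IL18R1 had 147 counts against 810, a ratio of 0.166 (0.138 to 0.198), and IL18RAP had 61 against 248, a ratio of 0.225 (0.167 to 0.299). IL12RB2, a chain of the IL-12 receptor, was higher with 1821 against 642 counts, a ratio of 2.59 (2.37 to 2.84), as was IL21R with 215 against 76, also 2.59 (1.98 to 3.41). IL4R stood at 0.497 (0.441 to 0.559), or 0.523 with scaling by total counts, which ends the call. The IL-2 receptor chains IL2RB and IL2RG stood at 0.935 and 0.877, and IL2RA at 0.615 in the low stretch of chromosome 10.

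Of 16 measured cytokines and chemokines, 2 were higher (12.5%), 3 lower (18.8%) and 11 had a log2 ratio below 0. Over all measured genes 16.4% were higher and 7.91% lower. At 5 CPM or more, 3 of 14 were lower and 0 higher, where 3.73% and 4.18% of all genes were. With scaling by total counts CCL4 and IL16 ended just short of the rule, at 0.5 and 0.502, which left 1 lower, and the 2 higher genes lie under 5 CPM. CCL4, an NK chemokine, had 4750 counts against 9145, a ratio of 0.475 (0.458 to 0.492), while its relative CCL3 stood at 0.95 and CCL5 at 1.13. CXCL8 stood at 0.427 (0.352 to 0.518). Its 24 h ratio of 2.53 did not count as higher, so its interval included 1 or both 24 h libraries held under 10 counts. At 24 h 0 genes of this list counted as higher. Lymphotoxin genes LTA and LTB stood at 0.531 and 0.522, just inside the rule, and IL32 at 0.646. CXCL10, an interferon target, had 22 counts against 0, at least 6.71-fold higher (interval from 5.01), and IL22 had 12 against 0.

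In the TNF family the CD30 receptor and its ligand differed in opposite directions. TNFRSF8 (CD30) had 481 counts against 67, a ratio of 6.56 (5.08 to 8.61), and TNFSF8 (CD30 ligand) had 21 against 135, a ratio of 0.142 (0.0853 to 0.226). At 24 h these stood at 8.18 and 0.0709. IRF4, a transcription factor of activated lymphocytes, was 2.16-fold higher (1.93 to 2.42). S1PR1, the receptor by which lymphocytes leave tissue, had 454 counts against 97, a ratio of 4.28 (3.43 to 5.39), and the collagen-binding integrin gene ITGA1 had 479 against 1186, a ratio of 0.369 (0.331 to 0.411). Of 23 measured lymphoid transcription factors 3 were higher and 2 lower, near the shares of all measured genes (16.4% and 7.91%). At 5 CPM or more, 1 of 20 was higher and 2 lower, where 4.18% and 3.73% of all genes were. ZEB2, a factor of late NK maturation, stood at 2.03 (1.74 to 2.37), while GATA3 at 0.384 and IKZF1 at 0.469 lie in low stretches of chromosomes 10 and 7. The DNA methyltransferase DNMT3B was 4.27-fold higher (3.55 to 5.16) in a raised stretch of chromosome 20, and DNMT3A had 13 counts against 39.

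Fast-response genes were split, with 2 higher and 3 lower of 16 measured. At 5 CPM or more, where 15 of the 16 lie, 4.18% of all genes were higher and 3.73% lower. Over all measured genes these shares were 16.4% and 7.91%. FOSB had 219 counts against 37, a ratio of 5.41 (3.81 to 7.89), and FOS stood at 2.29 (1.88 to 2.80). EGR1, EGR2 and NR4A3 were lower, at 0.286, 0.270 and 0.329, with at most 105 counts each in WT. Among the 16 NF-kB targets CD83 was lower, at 0.369 (0.292 to 0.464), and 0 were higher. Of 18 cholesterol synthesis genes 2 were lower, SQLE at 0.488 (0.514 and not past the rule with scaling by total counts) and the sterol sensor partner INSIG1 at 0.472. Of the 13 mitochondrially encoded respiratory chain genes MT-CO3 was lower, with 10575 counts against 19511, a ratio of 0.496 (0.484 to 0.507). It stood at 0.522 and was not past the rule with scaling by total counts. In the NF-kB, cholesterol and mitochondrially encoded lists the shares lower were 6.25%, 11.1% and 7.69%. All their members but 1 cholesterol gene lie at 5 CPM or more, where 3.73% of all genes were lower.

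All members of 4 lists of growth and RNA processing genes lie at 5 CPM or more, where 4.18% of all genes were higher and 3.73% lower. In these 4 lists 0 members passed the rule. They are 20 G2/M genes (median log2 ratio -0.08), 18 genes of MYC and ribosome biogenesis (-0.04, or 0.03 with scaling by total counts), 24 cytosolic ribosomal proteins (-0.12) and 22 splicing regulators (-0.24). Of 20 G1/S genes CCNE1 was lower, with 41 counts against 96, and of 19 nuclear respiratory chain genes COX5A was, at 0.490 (0.516 with scaling by total counts, which ends the call). Of 25 glycolysis and hypoxia genes 3 were higher (12%), where 16.4% of all measured genes were. They are PLOD2, VEGFA with 42 counts against 6, and the carbonic anhydrase gene CA9 with 20 against 0. At 5 CPM or more 1 of 20 was higher, where 4.18% of all genes were.

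Outside the interferon list, the highest genes were of varied kinds. PLOD2, a collagen lysyl hydroxylase, had 186 counts against 0, at least 56.7-fold higher (interval from 45.6), and NLGN1, a synaptic adhesion protein, had 291 against 4, a ratio of 66.5 (25.7 to 246). At 24 h their ratios were 89.6 and 49.1. The cyclin-dependent kinase gene CDK14 had 1181 against 54, a ratio of 20.0 (15.2 to 26.8), and the 24 h ratio was 2.33. The adhesion genes NCAM2 and CDH13 stood at 38.2 (14.6 to 142) and 27.0 (12.1 to 74.5), and the lipid receptor gene GPR55 at 31.4 (10.4 to 155), from 3 counts in WT. ZNF585A had 69 counts against 0, at least 21-fold higher (interval from 16.6), and its near copy ZNF585B 203 against 12, so that reads may be split between them.

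The lowest genes were mostly low at 24 h as well. CHI3L1, a secreted chitinase-like glycoprotein, had 483 counts (41.6 CPM) against 6531 (616 CPM), a ratio of 0.0676 (0.0615 to 0.0742). C16orf54 had 0 counts against 59, at least 21.5-fold lower (ratio interval up to 0.0590), and CHFR, a mitotic checkpoint ubiquitin ligase, had 8 against 151, a ratio of 0.0484 (0.0205 to 0.0979). RNF144A, a ubiquitin ligase, had 2 against 68, a ratio of 0.0269 (0.00319 to 0.101), and starts at 6917392 on chromosome 2, past the end of RSAD2 at 6898239. The zinc finger factor ZNF423 had 46 against 530, a ratio of 0.0794, the phosphatase PTPN3 19 against 267, a ratio of 0.0651, and NT5DC3 14 against 154, a ratio of 0.0831. PPARA, the fatty acid receptor, had 36 against 321, a ratio of 0.103 (0.0705 to 0.145), and LAPTM5, a lysosomal protein of blood cells, 89 against 609, a ratio of 0.134. CA6 had 1 count against 60, a ratio of 0.0152 (0.00038 to 0.0882), and the lens gene LIM2 20 against 193. GOLGA8M, GOLGA8R and ATP10A lie in the low stretch of chromosome 15 at 0.120, 0.0841 and 0.101, and the GOLGA8 genes are near-identical copies whose counts are uncertain.

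Over all protein-coding genes at 5 CPM or more, 339 were higher and 297 lower at 48 h. Of the 339, 52 were higher and 17 lower at 24 h, 269 did not pass and 1 had under 10 counts. Of the 297, 100 were lower and 2 higher at 24 h, 190 did not pass and 5 had under 10 counts. At 24 h, 1.01% of 10177 genes at 5 CPM or more were higher and 2.92% lower. The pairs share no library, but the 24 h libraries were deeper, with 28576566 and 24809269 counts.

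Both higher and lower genes were unevenly placed along the chromosomes. Of 9104 protein-coding genes at 5 CPM or more, 8.52% lay where the median log2 ratio of 41 neighbouring genes was at most -0.3, and these held 104 of the 297 lower genes (35.0%). Where that median was at least 0.3 lay 1.60% of the genes and 33 of the 339 higher ones (9.735%). This description rests on the same ratios as the calls. By chromosome, the median log2 ratio was -0.54 over 309 genes of chromosome 15, with 43 lower (13.9%). It was -0.30 over 434 genes of chromosome 7, with 36 lower (8.3%). Over 158 genes of chromosome 13 it was -0.30, with 6 lower (3.8%), beside 297 of all 9104 genes. At 24 h these medians were -0.51, -0.26 and -0.02. Of 337 genes of chromosome 10, 8.01% were lower, and of 245 genes of chromosome 20, 11.8% were higher.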

How the data were processed

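Libraries were CORALL RNA-seq V2 after rRNA removal with RiboCop, per the labels' protocols. The deposited counts are whole reads per Ensembl gene and were not normalized. The submitters' processing notes list hg38, HISAT2 2.2.0, SAMtools 1.15.1 and featureCounts 2.0.1, with no roles. Not given in the sources used here are the strand setting, the annotation release and how molecular identifiers were used, so overlapping, antisense and near-identical genes are uncertain. The deposited FPKM values equal count over length over total within 1% for 100% of values, and served as an alternative. No column belonged to other samples.

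TMM factors came from edgeR 4.0.16 in R 4.3.3, over the genes with at least 10 counts in 1 library of each pair, and the values of each time are scaled separately. Intervals are exact conditional binomial (Clopper-Pearson) 95% intervals from scipy 1.17.1. PCR reads are not independent molecules, so intervals and limits cover counting error only. Log2 ratios used a prior count of 2. Symbols came from the FPKM table for 41013 of 61860 identifiers and from a name table for 1404 more, and GENCODE 29 (GRCh38) placed 58308. The script was tested on simulated data. Genes were named by rule: OGT and OGA, then the 15 protein-coding genes in each direction at 5 CPM or more with the interval bound farthest from 1, and from each of 42 lists up to 8 members past the rule, or the largest ratios until 2 were named. Some of these are not reported here, and members that did not pass, or lie beyond these numbers, were added to complete a list or pathway. The members and lists were chosen with earlier results of these data known.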

Additional observations from a re-analysis of the deposited data

Results flagged for a closer look

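Among listed genes at 5 CPM or more at both times, 4 were higher in ΔOGT-ISS at 48 h and lower at 24 h, each past the 2-fold rule with an interval off 1. The antiviral enzyme gene OAS3 stood at 5.51 (4.31 to 7.12) in the 48 h pair and at 0.366 (0.314 to 0.426) in the 24 h pair. The RNA-binding IFIT2 stood at 3.86 and 0.484, and LGALS3BP, a secreted galectin-binding glycoprotein, at 6.81 and 0.329. TNFRSF9, which encodes the co-stimulatory receptor 4-1BB, stood at 4.92 with 70 and 13 counts and at 0.0848 with 18 and 179 counts. These opposite ratios were not tested against each other, since each line has 1 library at each time.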

How the results depend on the processing

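The OGT and OGA ratios and the interferon list median kept their direction in every setting run. So did the 15 named genes farthest from 1 in each direction. Those genes were picked by the same ratios, which leaves little room for a reversal. Of the 127 list members past the rule, 8 were not past it with upper-quartile or total-count scaling: CCL4, COX5A, HAVCR2, IL16, IL4R, MT-CO3, SQLE and TNFRSF4. Another 6 members passed only with other factors, among them STAT2 at 2.08 with total counts. The medians of 13 lists changed sign in some setting. For 6 of them, all within 0.06 of 0, another scaling or the deposited FPKM did so: with total counts the NF-kB targets stood at 0.02, the cytotoxic granule genes at 0.05, the IL-2 and STAT5 list and the MYC list at 0.03, the heat shock proteins at 0.04 and the chemokine and lipid receptors at 0.07. With a minimum of 1 count, MHC class II stood at 0.01, B cell markers at 0.90, erythroid markers at -0.10 and the chemokine and lipid receptors at 0.54, and at 5 CPM or more T cell markers stood at -0.22. The median log2 ratio of the interferon list lay between 1.59 and 1.73 in every setting. The count of higher genes, 2910, became 4846 with a minimum of 1 count, 490 with 50 counts, 1515 with the whole interval past 2-fold, 1590 for protein-coding genes and 420 at 5 CPM or more, a limit chosen after seeing the data. The count of lower genes, 1406, became 2433, 404, 511, 665 and 375, and 2289 with a ratio of 1.5. The OGT ratio was 0.921 with upper-quartile factors and 0.929 with total counts or the deposited FPKM, and the OGA ratio was 0.765 with the local median removed. List members past the rule went from 127 to 215 with a ratio of 1.5. Genes past the rule at 24 h went from 2007 to 1225 when those libraries were reduced at random to the total of the 48 h WT library. Fewer genes and counts follow from the construction of the stricter settings, and the cause of the other shifts was not tested. No paired analysis was possible because each group has 1 library and the titles carry no replicate numbers. At this depth, ratios of genes under 5 CPM are the least certain, and sampling between cultures was not measured.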

Other observations

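A stretch of chromosome 9 differed between the pairs. From position 121038 to 32573184 (GRCh38), 50 protein-coding genes at 5 CPM or more had a median log2 ratio of 0.76 at 48 h, with 94.0% of them above 0, and of 0.19 at 24 h, with 78.0% above 0. The stretch was picked after seeing the 48 h ratios, as neighbouring genes whose median over 41 genes was at least 0.3, so its 48 h median is a description, and the 24 h ratios played no part in the choice. It holds JAK2 at 3.05, RIGI at 2.16, the glycine decarboxylase gene GLDC at 11.7, the leukaemia fusion partner MLLT3 at 2.04, the guanine exchange factor DOCK8 at 1.89 (1.82 to 1.96) and the cell cycle inhibitor CDKN2A at 1.66 (1.5 to 1.84). At 24 h these stood at 1.35, 0.800, 0.727, 1.14, 1.28 and 1.00. The chromatin gene SMARCA2, within it, stood at 0.940 (0.859 to 1.03). By the same choice, a stretch of chromosome 5 from 151437046 to 181261139 with 95 genes had medians of -0.46 and -0.21, and one of chromosome 20 from 23079349 to 36773818 with 61 genes had 0.78 and 0.66. Whether DNA content differs there was not tested.

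Of protein-coding genes at 5 CPM or more at both times, 12 were higher at 48 h and lower at 24 h, and 0 the other way. Beside the 4 listed genes above, they include the protease inhibitor SPINK5 at 5.49 and 0.114, the cytokine IL6 at 2.08 and 0.221, and GPAM, which starts glycerolipid synthesis, at 2.03 and 0.433. These were named after their values were seen, and the change of direction was not tested.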
